A study of Mus musculus with 18 samples.

Results

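TNF receptors of the tubular epithelium were followed in cultured mouse kidney cells, as a list of 10 genes chosen by name: Tnfrsf1a, Tnfrsf1b, Fas, Tnfrsf10b, Tnfrsf11a, Tnfrsf11b, Tnfrsf9, Tnfrsf19, Tnfrsf21 and Ltbr. They were found by their current mouse symbols among the 36528 genes listed, and all 10 were present. They and the gene lists below were chosen with earlier results of these data known. Counts set beside shares of all genes therefore describe the lists and test no excess. The study asked which transcripts the cytokine TWEAK changes in renal proximal tubulo-interstitial epithelial cells (RPTEC), and which of those changes depend on NF-κB-inducing kinase (NIK), using the small molecule inhibitor NIK SMI1. The cells were primary C57BL/6 RPTEC from a commercial supplier, and RNA sequencing covered 18 samples in 6 groups of 3. At 6 h and again at 24 h there was a group given the vehicle (DMSO), a group given 100 ng/mL recombinant mouse TWEAK, and a group given the same dose of TWEAK with 3 µM NIK SMI1. None of the 6 groups was given NIK SMI1 without TWEAK, so every value for the inhibitor is from stimulated cells. The sources describe 3 replicates per treatment and do not say whether these were separate cultures, so the p-values measure the spread between samples, which may be technical.

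Receptors of the TNF superfamily are membrane proteins that bind trimeric ligands and pass the signal on through adaptor proteins. Some carry a death domain in their cytoplasmic tail and can start apoptosis, as Fas does. Others lack it and recruit TRAF proteins, which lead to the canonical NF-κB pathway and, for some receptors, to the non-canonical pathway, in which stabilized NIK drives processing of p100 to p52. In kidney, tubular epithelium is a known target of TNF and TWEAK during inflammation, and the TWEAK receptor Tnfrsf12a is itself a member of this family.

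Total counts ran from 18040966 to 51956444 reads per sample (median 35374254), so that 3 reads corresponded to 0.0577 to 0.166 CPM (counts of a gene scaled to a fixed total of reads counted to genes). Of the 36528 genes, 15521 exceeded 10 reads in 4 or more samples and entered the tests. Epithelial genes were abundant: Krt8, Krt18, Epcam and Cdh1 had at least 32369, 79528, 12644 and 21911 reads in every sample. Of 7 such genes 3 rose and 3 fell with TWEAK at 6 h (edgeR adjusted p below 0.05), beside 11.7% and 12% of all genes. Epcam was 1.81-fold higher. Podxl, listed for podocytes, had 5557 to 20020 reads, and Col1a1, listed for fibroblasts, had 197 to 693. Of 9 proximal tubule genes 4 could be tested, and all 9 summed to 10.7 to 14.56 CPM per sample: Slc5a2 had 119 to 402 reads, Cubn 53 to 186, Ggt1 10 to 95 and Lrp2 2 to 15, while Slc34a1 and Slc22a6 had at most 1 read and Slc22a8 had 0 in every sample. Of 8 leukocyte genes 2 could be tested, and all 8 summed to 18.45 to 26 CPM: Cd68 had 236 to 647 reads and Csf1r 101 to 583, while Ptprc had at most 11 and Cd3e and Tyrobp had 0 in every sample. Csf1r rose 1.48-fold with TWEAK at 24 h (edgeR adjusted p = 2.37e-05). Its mean at 24 h was 8.10 CPM in vehicle, 11.94 CPM with TWEAK and 8.41 CPM with TWEAK and NIK SMI1. The part of the leukocyte genes in the results below was not tested. Summed transcripts of 7 pancreatic islet genes, which include insulin, separated part of the samples: they lay between 13.2 and 29.04 CPM in 13 samples, at 0.214 and 4.18 CPM in samples 2 and 3 of TWEAK at 24 h, and between 0.0451 and 0.0870 CPM in the 3 samples of TWEAK with NIK SMI1 at 24 h. These sums moved with the 24 h comparisons. At 6 h the groups overlapped, but sample 1 of TWEAK was at 29.04 CPM, against 14.77 to 18.53 CPM in the other samples at 6 h. The part of the islet transcripts in the results below was not tested.

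Per length of transcript, the receptors fell into an abundant and a scarce set. Median RPKM over the 18 samples (reads scaled to transcript length and library size, as deposited) was 56.0 for Ltbr, 50.6 for Tnfrsf1a, 31.1 for Tnfrsf21 and 28.4 for Tnfrsf10b, and even Tnfrsf10b lay above the median RPKM of 82.4% of the genes tested. The next receptor, Tnfrsf1b, had a median RPKM of 2.63, followed by Tnfrsf11a at 1.34, Tnfrsf11b at 0.645, Fas at 0.453 and Tnfrsf9 at 0.217. Tnfrsf19, an orphan receptor without a death domain, had 5 reads over all 18 samples: 2 in sample 2 of TWEAK at 6 h, and 1 and 2 in samples 2 and 3 of TWEAK with NIK SMI1 at 24 h. It stayed at or under 3 reads everywhere and was the only one of the 10 genes that was not tested. Among the other 9, 8 had more than 10 reads in all 18 samples and Tnfrsf9 in 16, with a low of 4 reads.

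Most neighbours in this order were apart in every group, with the lowest sample of the higher gene above the highest sample of the lower gene. Ltbr and Tnfrsf1a overlapped in vehicle at 6 h, where mean RPKM was 57.0 ± 3.19 and 52.8 ± 1.88 (SD, n = 3). Tnfrsf10b and Tnfrsf21 changed places: Tnfrsf21 led in both vehicle groups, at 35.0 ± 0.855 against 25.96 ± 0.557 RPKM at 6 h, whereas Tnfrsf10b led after TWEAK at 24 h, at 29.3 ± 0.729 against 24.5 ± 0.263 RPKM (SD, n = 3). At 6 h of TWEAK these 2 receptors overlapped. Fas overlapped with Tnfrsf9 in vehicle at 6 h and with Tnfrsf11b in all 3 groups at 24 h.

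**Figure D1:**
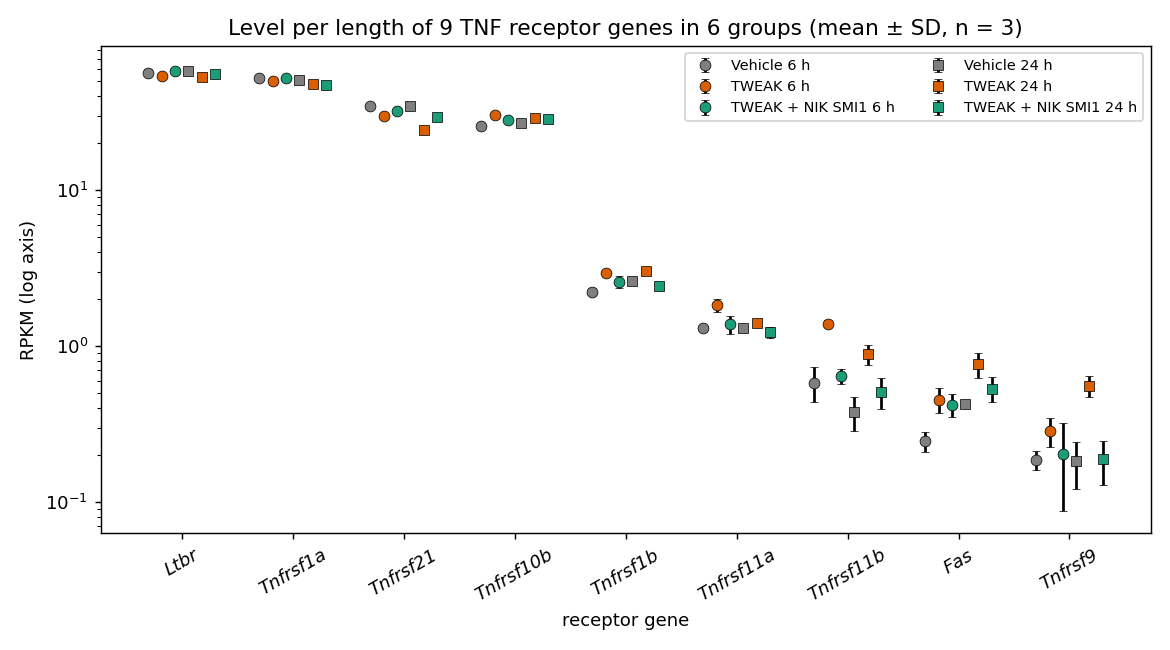
Mean RPKM of the 9 tested receptor genes on a log axis, with SD of 3 samples as bars (smaller than the symbol where not visible), for 6 groups: circles 6 h, squares 24 h, grey vehicle, orange TWEAK, green TWEAK with NIK SMI1. Ltbr, Tnfrsf1a, Tnfrsf21 and Tnfrsf10b have group means of 24.5 RPKM or more and the other 5 genes of 3.05 RPKM or less, and the orange square of Tnfrsf21 drops below that of Tnfrsf10b.

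TWEAK raised 5 receptors at each time. Tnfrsf1b, Fas, Tnfrsf10b, Tnfrsf11a and Tnfrsf11b rose at 6 h, and Tnfrsf1b, Fas, Tnfrsf10b, Tnfrsf11b and Tnfrsf9 at 24 h, with folds from 1.09 for Tnfrsf10b at 24 h to 3.15 for Tnfrsf9 at 24 h. Tnfrsf21 fell at both times, and Ltbr fell slightly at 24 h. Calls were made at a Benjamini-Hochberg adjusted p below 0.05 in edgeR's quasi-likelihood test. At 6 h 6 of the 9 receptors passed, 5 higher and 1 lower, against 23.7% of all genes tested (11.7% higher and 12% lower). At 24 h 7 passed, 5 higher and 2 lower, against 39% of all genes (18.3% higher and 20.7% lower). Because the receptors were chosen with earlier results of these data known, these counts cannot show an excess over all genes. The median log2 fold change over the 9 receptors was 0.41 at 6 h and 0.12 at 24 h, beside medians over all genes of 0.00 and -0.01. With a fold above 2 also required, Tnfrsf11b alone remained at 6 h, where 1.75% of genes passed in that direction, and Tnfrsf11b and Tnfrsf9 remained at 24 h, where 2.34% did. In bulk RNA, fewer cells expressing a receptor and less receptor RNA per cell cannot be told apart.

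**Figure D2:**
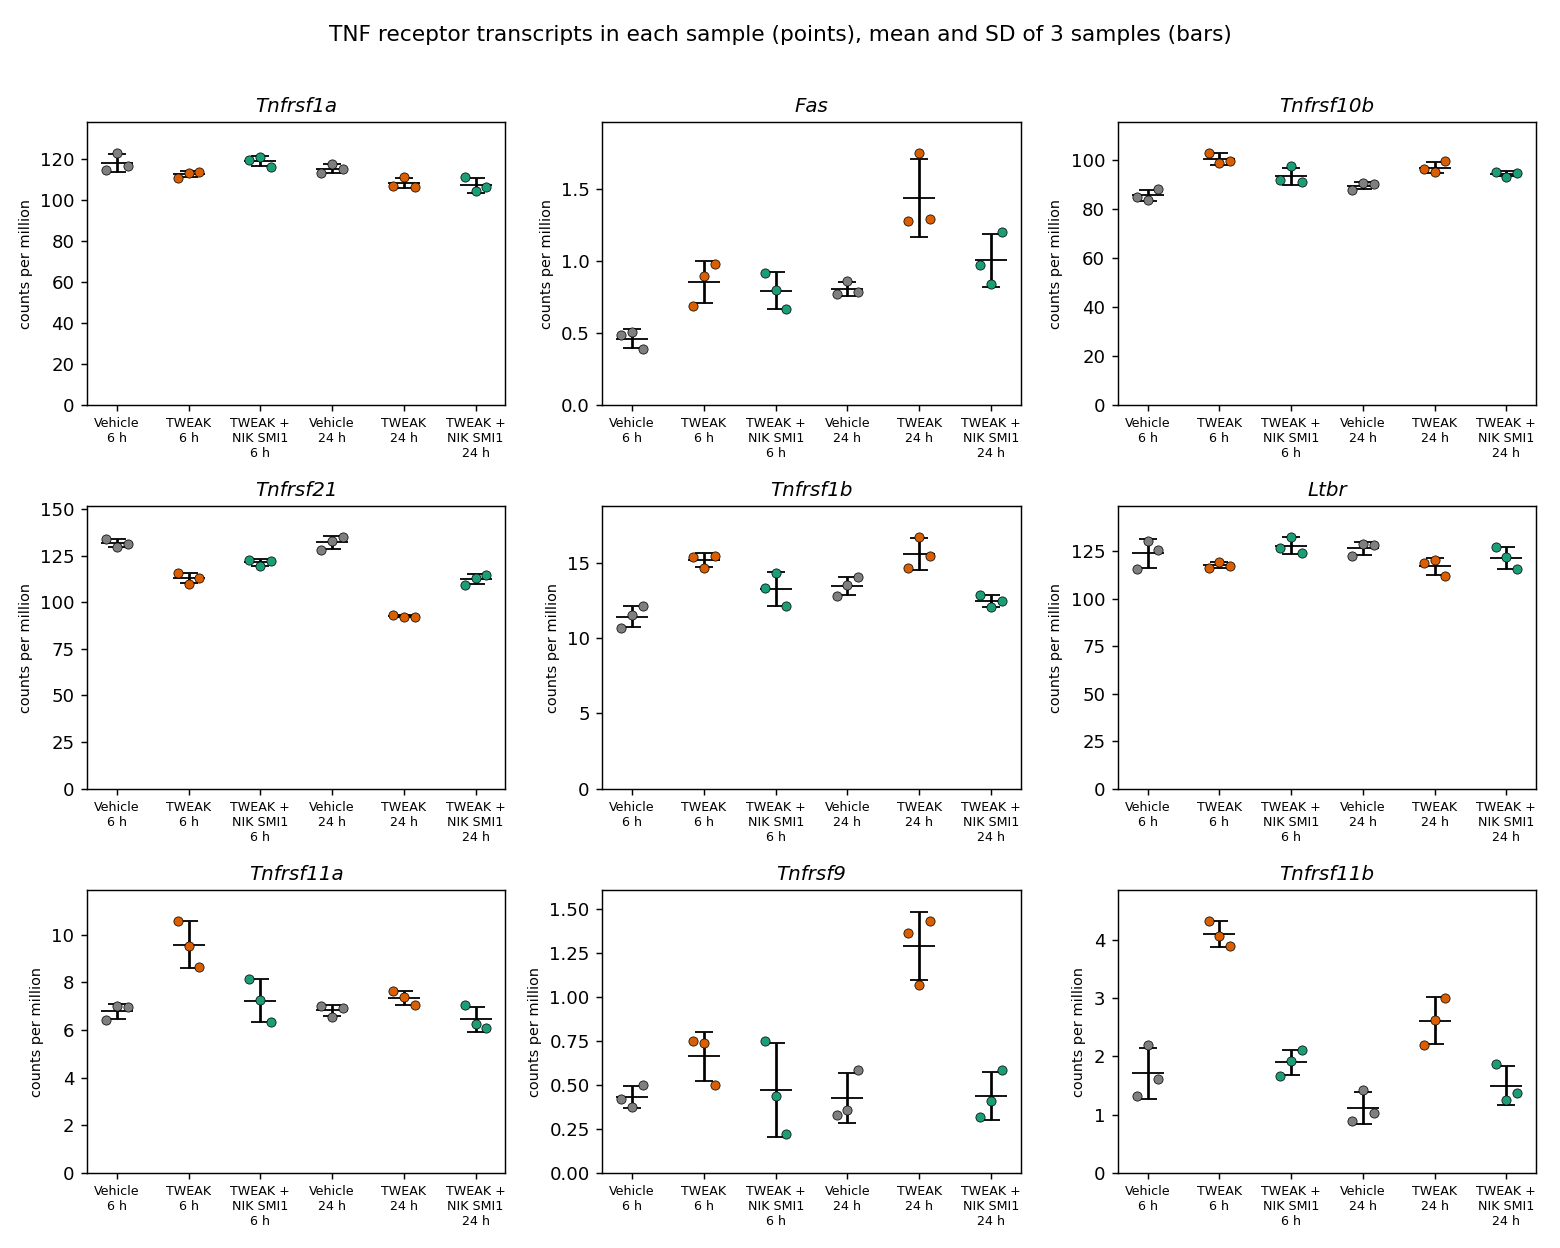
Level in CPM of 9 receptor genes in each of the 18 samples (points), with the mean and SD of the 3 samples of a group (bars), for vehicle (grey), TWEAK (orange) and TWEAK with NIK SMI1 (green) at 6 h and 24 h; every vertical axis starts at 0 and has its own scale. Tnfrsf11b stands highest in TWEAK at 6 h and Tnfrsf9 in TWEAK at 24 h, Tnfrsf21 is lowest in TWEAK at 24 h, and Tnfrsf1a and Ltbr stay between 104 and 133 CPM throughout.

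Of the 4 receptors with a death domain in their cytoplasmic tail, Fas and Tnfrsf10b rose, Tnfrsf21 fell, and Tnfrsf1a passed at neither time. Tnfrsf1a encodes TNFR1, the broadly expressed receptor for soluble TNF. Its level at 6 h was 115, 123 and 117 CPM in vehicle and 111, 113 and 114 CPM with TWEAK, so that every TWEAK sample was just below every vehicle sample. The log2 fold change of Tnfrsf1a was -0.06 (SE 0.0347, edgeR adjusted p = 0.264). At 24 h Tnfrsf1a was at 113, 118 and 115 CPM in vehicle and 107, 111 and 107 CPM with TWEAK, again without overlap, with a log2 fold change of -0.09 (SE 0.0357, edgeR adjusted p = 0.051). That p lay close to the threshold and passed it when any of 7 samples was left out in turn, at edgeR adjusted p values from 0.0436 to 0.0496. These were samples 1 and 2 of vehicle, sample 1 of TWEAK and samples 2 and 3 of TWEAK with NIK SMI1 at 6 h, and sample 2 of TWEAK and sample 1 of TWEAK with NIK SMI1 at 24 h.

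Fas encodes the receptor for Fas ligand, which assembles the caspase-8 activating complex. It was scarce, at 12 to 82 reads per sample. In vehicle at 6 h Fas was at 0.486, 0.508 and 0.385 CPM, and with TWEAK at 0.689, 0.895 and 0.977 CPM, with no overlap. Fas rose 1.91-fold at 6 h (log2 0.93, SE 0.259, edgeR adjusted p = 0.00812). The call was lost without sample 3 of vehicle at 6 h, the lowest of the vehicle samples (log2 0.79, edgeR adjusted p = 0.0603). At 24 h Fas was at 0.772, 0.862 and 0.781 CPM in vehicle and at 1.28, 1.76 and 1.29 CPM with TWEAK, where all 3 treated samples again exceeded all 3 controls. The change at 24 h was 1.83-fold (log2 0.87, SE 0.239, edgeR adjusted p = 0.00474).

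The 250 bases before the start of Fas in RefSeq (GRCm38.p6, chr19:34290409-34290658, + strand) are shown because, of the 8 receptors matched to a total of 10 RefSeq windows, only Fas and Tnfrsf9 had the AP-1 sequence TGAGTCA or the NF-κB consensus. Tnfrsf10b and Tnfrsf11b had no window and were not searched. Of the other motifs searched, also on both strands, TATAAA was in none of the 10 windows (12.4% of all windows hold it). GGGCGG was absent from the Tnfrsf1a window, from Tnfrsf9 at chr4:150927749-150927998 and from Tnfrsf19 at chr14:61046856-61047105. Every other window of the matched receptors held GGGCGG, beside 32.7% of all windows. TGAGTCA, in capitals, lies 211 to 205 bases before the start. It occurs in 4.46% of the 32851 promoter windows of this length, and a match is a description of the letters, not evidence of binding.
Fas: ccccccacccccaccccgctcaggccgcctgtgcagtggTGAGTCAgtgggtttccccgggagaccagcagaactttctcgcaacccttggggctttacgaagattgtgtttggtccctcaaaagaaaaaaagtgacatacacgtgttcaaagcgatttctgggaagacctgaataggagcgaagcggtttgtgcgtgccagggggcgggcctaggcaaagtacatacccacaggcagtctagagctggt

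Tnfrsf10b encodes the mouse TRAIL receptor, the counterpart of the human death receptors for TRAIL. After 6 h Tnfrsf10b stood at 85.2, 83.9 and 88.3 CPM in vehicle and at 103, 98.8 and 99.6 CPM with TWEAK, so the groups were well apart. It rose 1.18-fold (log2 0.24, SE 0.0359, edgeR adjusted p = 7.01e-06). At 24 h Tnfrsf10b was at 87.9, 90.6 and 90.2 CPM in vehicle and at 96.3, 95.2 and 99.8 CPM with TWEAK, still without overlap. This 1.09-fold rise (log2 0.12, SE 0.037, edgeR adjusted p = 0.0124) was lost without sample 1 of vehicle at 24 h (edgeR adjusted p = 0.0688) or sample 3 of TWEAK at 24 h (edgeR adjusted p = 0.074).

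Tnfrsf21 encodes death receptor 6, whose best known roles are in neurons and in lymphocyte activation. After 6 h Tnfrsf21 was at 134, 129.6 and 131 CPM in vehicle and at 116, 110 and 113 CPM with TWEAK, with every treated sample below every control. It fell 1.16-fold (log2 -0.21, SE 0.034, edgeR adjusted p = 2.1e-05). At 24 h it was at 128, 133 and 135 CPM in vehicle and at 93.4, 92.3 and 92.2 CPM with TWEAK, which left a wide gap between the groups. Tnfrsf21 fell 1.43-fold at 24 h (log2 -0.51, SE 0.0352, edgeR adjusted p = 2.76e-12), the smallest adjusted p among the 9 receptors in this comparison.

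Among receptors that signal through TRAF proteins, Tnfrsf1b, Tnfrsf11a and Tnfrsf9 rose at one time or both. Tnfrsf1b encodes TNFR2, which responds best to membrane-bound TNF. After 6 h Tnfrsf1b was at 10.7, 11.5 and 12.1 CPM in vehicle and at 15.4, 14.7 and 15.5 CPM with TWEAK, without overlap. It rose 1.33-fold (log2 0.41, SE 0.0695, edgeR adjusted p = 3.75e-05). At 24 h Tnfrsf1b was at 12.8, 13.6 and 14.1 CPM in vehicle and at 14.7, 16.8 and 15.5 CPM with TWEAK, where the gap between groups was narrow. The 1.17-fold rise at 24 h (log2 0.23, SE 0.0726, edgeR adjusted p = 0.013) was lost without sample 1 of vehicle at 24 h (edgeR adjusted p = 0.0989) or sample 2 of TWEAK at 24 h (edgeR adjusted p = 0.0949).

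Ltbr encodes the lymphotoxin beta receptor, an activator of the non-canonical NF-κB pathway and, per length, the most abundant of the 10 receptors. The 6 h samples of Ltbr were at 115, 130.3 and 126 CPM in vehicle and at 116, 119 and 117 CPM with TWEAK, so the groups overlapped. The log2 fold change of Ltbr at 6 h was -0.06 (SE 0.041, edgeR adjusted p = 0.319). At 24 h it was at 123, 129 and 128 CPM in vehicle and at 119, 120.4 and 112 CPM with TWEAK, with every treated sample lower. Ltbr fell 1.08-fold at 24 h (log2 -0.11, SE 0.042, edgeR adjusted p = 0.0385), and the call was lost without sample 2 or 3 of vehicle at 24 h (edgeR adjusted p = 0.118 and 0.106) or sample 3 of TWEAK at 24 h (edgeR adjusted p = 0.196).

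Tnfrsf11a encodes RANK, the receptor through which RANKL drives osteoclast formation. The 6 h samples of Tnfrsf11a were at 6.42, 7.002 and 6.95 CPM in vehicle and at 10.6, 9.52 and 8.66 CPM with TWEAK, without overlap. It rose 1.42-fold (log2 0.51, SE 0.0905, edgeR adjusted p = 8.85e-05). At 24 h Tnfrsf11a was at 6.99, 6.54 and 6.93 CPM in vehicle and at 7.62, 7.41 and 7.05 CPM with TWEAK, where the groups just failed to overlap, and the log2 fold change was 0.10 (SE 0.0999, edgeR adjusted p = 0.48). Of 4 osteoclast genes 1 could be tested: Acp5 had 45 to 185 reads and fell with TWEAK (log2 -0.44, edgeR adjusted p = 0.021 at 6 h and log2 -0.87, edgeR adjusted p = 5.56e-05 at 24 h), while Ctsk had at most 6 reads and Ocstamp 0 in every sample.

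Tnfrsf9 encodes 4-1BB (CD137), a costimulatory receptor best known from activated T cells. It had 4 to 60 reads per sample. At 6 h it was at 0.421, 0.374 and 0.500 CPM in vehicle and at 0.747, 0.736 and 0.502 CPM with TWEAK, where the lowest treated sample barely exceeded the highest control. The log2 fold change at 6 h was 0.61 (SE 0.328, edgeR adjusted p = 0.203). At 24 h Tnfrsf9 was at 0.327, 0.355 and 0.586 CPM in vehicle and at 1.37, 1.07 and 1.43 CPM with TWEAK, and all 3 treated samples were far above the controls. It rose 3.15-fold (log2 1.65, SE 0.338, edgeR adjusted p = 0.000272), the largest fold among the 9 receptors tested.

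RefSeq gives Tnfrsf9 a pair of starts on chromosome 4 (GRCm38.p6, + strand), and their upstream windows are shown because only the downstream start had the NF-κB consensus. The upstream start, with the window chr4:150919905-150920154, held neither TGAGTCA nor the NF-κB consensus. In the window chr4:150927749-150927998 the NF-κB consensus matched in 2 overlapping frames, GGGGATTTCC at 43 to 34 and GGGATTTCCC at 42 to 33 bases before the start, and TGAGTCA lay 15 to 9 bases before it. Matches are in capitals. The NF-κB consensus occurs in 5% of the 32851 windows. The windows of Tnfrsf1a, Tnfrsf1b, Tnfrsf11a, Tnfrsf19, Tnfrsf21 and Ltbr held neither of them, which says only that these letters are absent from those 250 bases.
Tnfrsf9 upstream start: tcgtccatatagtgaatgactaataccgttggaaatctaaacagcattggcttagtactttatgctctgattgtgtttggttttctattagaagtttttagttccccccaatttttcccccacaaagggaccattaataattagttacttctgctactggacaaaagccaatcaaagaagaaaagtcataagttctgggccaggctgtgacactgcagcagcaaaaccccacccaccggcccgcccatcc
Tnfrsf9 downstream start: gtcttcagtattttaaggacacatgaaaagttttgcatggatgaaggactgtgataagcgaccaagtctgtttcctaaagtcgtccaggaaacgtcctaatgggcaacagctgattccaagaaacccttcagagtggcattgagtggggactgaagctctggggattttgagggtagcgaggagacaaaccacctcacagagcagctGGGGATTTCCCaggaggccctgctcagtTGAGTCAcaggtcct

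Tnfrsf11b encodes osteoprotegerin, a secreted decoy receptor that binds RANKL and TRAIL. It had 21 to 205 reads per sample. The 6 h samples of Tnfrsf11b were at 1.33, 2.19 and 1.62 CPM in vehicle and at 4.34, 4.08 and 3.91 CPM with TWEAK, with a wide gap between the groups. It rose 2.41-fold (log2 1.27, SE 0.173, edgeR adjusted p = 1.75e-06). At 24 h Tnfrsf11b was at 0.889, 1.42 and 1.03 CPM in vehicle and at 2.20, 2.63 and 3.01 CPM with TWEAK, again without overlap. The rise at 24 h was 2.49-fold (log2 1.32, SE 0.215, edgeR adjusted p = 1.57e-05).

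Counted by samples alone, the 3 TWEAK values did not overlap the 3 vehicle values for 8 of the 9 receptors at 6 h, 6 higher and 2 lower, where 15.8% and 20.2% of all genes tested did so. At 24 h this held for all 9, 6 higher and 3 lower, against 24% and 25.6% of all genes. Within TWEAK at 24 h the islet sums were 13.2, 0.214 and 4.18 CPM in samples 1 to 3, while Tnfrsf9 was at 1.37, 1.07 and 1.43 CPM and Tnfrsf21 at 93.4, 92.3 and 92.2 CPM in the same samples. Sample 2 had the highest Fas (1.28, 1.76 and 1.29 CPM) and Tnfrsf1b (14.7, 16.8 and 15.5 CPM), and sample 1 the lowest Tnfrsf11b (2.20, 2.63 and 3.01 CPM). With samples 2 and 3 left out, a choice made after seeing the data that assumes the lone sample varies like the other groups, Tnfrsf11b, Tnfrsf9 and Tnfrsf21 still passed at 24 h. Tnfrsf1b, Fas, Tnfrsf10b and Ltbr did not, at log2 fold changes of 0.13, 0.68, 0.11 and -0.085 beside 0.23, 0.87, 0.12 and -0.11 with all samples, and edgeR adjusted p values of 0.43, 0.193, 0.154 and 0.369 with a TWEAK group of 1 sample.

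**Figure D3:**
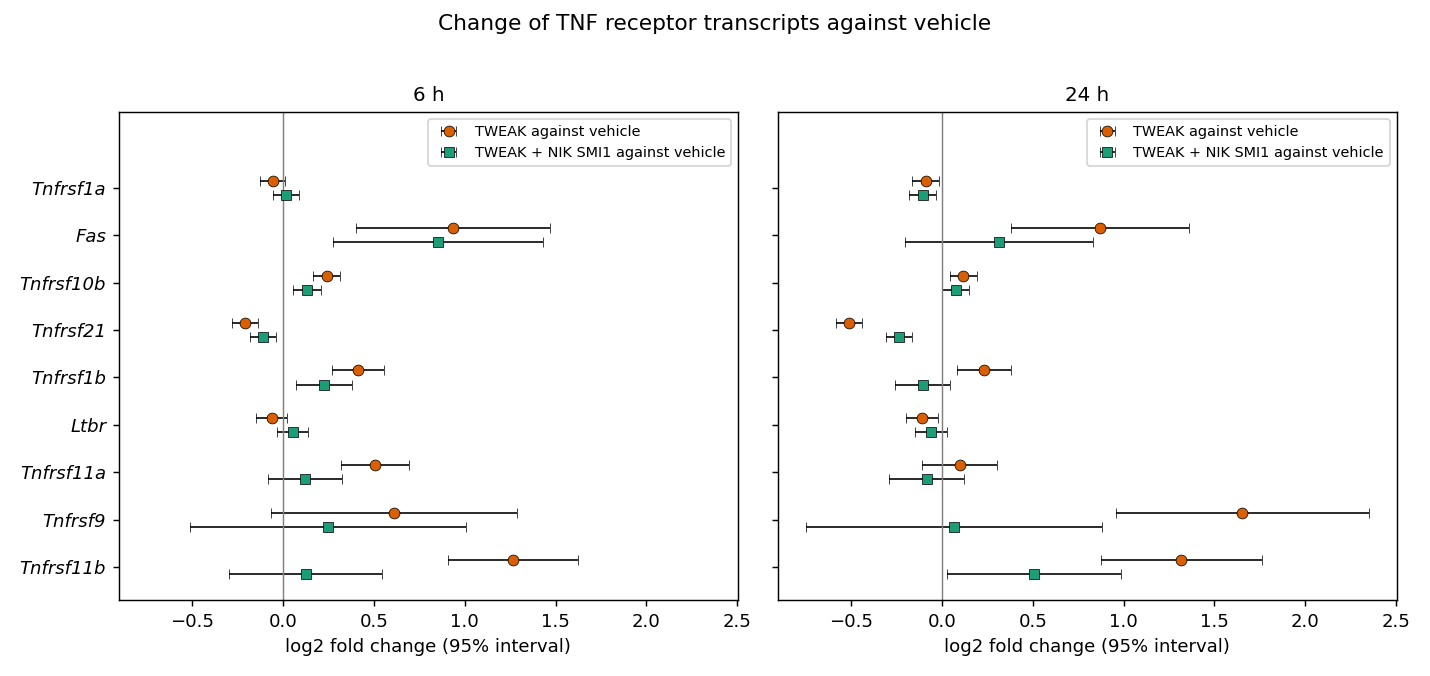
Log2 fold change against vehicle, with a 95% interval derived from the edgeR test, of 9 receptor genes at 6 h (left) and 24 h (right). Orange circles are TWEAK and green squares TWEAK with NIK SMI1. Both sets use the same 3 vehicle samples of their time. At 24 h the TWEAK value of Tnfrsf9 is 1.65 and the value with NIK SMI1 is 0.07, and for Tnfrsf21 the values are -0.51 and -0.24.

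With NIK SMI1 present, some of the receptors that TWEAK changed passed in a comparison with TWEAK alone, each differing toward its vehicle level. Receptors that did not pass could also lie nearer to vehicle. Tnfrsf11b was lower with the inhibitor at both times, Tnfrsf11a at 6 h, and Tnfrsf1b and Tnfrsf9 at 24 h, while Tnfrsf21 was higher at 24 h. At 6 h 2 of the 9 receptors passed, both lower, against 11% of all genes (5.34% higher and 5.7% lower). At 24 h 4 passed, 3 lower and 1 higher, against 18.5% of all genes (8.29% lower and 10.2% higher). The median log2 fold change over the receptors was -0.11 at 6 h and -0.18 at 24 h, beside 0.00 and 0.01 over all genes. With a difference above 1.5-fold also required, Tnfrsf11b remained at 6 h, where 1.1% of genes passed as lower, and Tnfrsf11b and Tnfrsf9 at 24 h, where 1.75% did. These comparisons use the same TWEAK samples as those against vehicle, so an unusual TWEAK sample moves both in opposite directions.

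Tnfrsf11b was at 1.67, 1.92 and 2.11 CPM with TWEAK and NIK SMI1 at 6 h, against the 4.34, 4.08 and 3.91 CPM of TWEAK alone, and inside the span of the vehicle samples. It was 2.21-fold lower (log2 -1.14, SE 0.184, edgeR adjusted p = 6.92e-05). At 24 h Tnfrsf11b was at 1.87, 1.25 and 1.37 CPM with the inhibitor, below every sample of TWEAK alone and partly above vehicle. The difference was 1.75-fold (log2 -0.81, SE 0.189, edgeR adjusted p = 0.0026). With samples 2 and 3 of TWEAK at 24 h left out, which leaves 1 TWEAK sample, the log2 difference was -0.55. The sample kept had an islet sum of 13.2 CPM, against 0.0451 to 0.0870 CPM in the NIK SMI1 samples at 24 h.

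Tnfrsf9 was at 0.316, 0.406 and 0.585 CPM with TWEAK and NIK SMI1 at 24 h, overlapping vehicle and below every sample of TWEAK alone. It was 3.01-fold lower than with TWEAK alone (log2 -1.59, SE 0.313, edgeR adjusted p = 0.000443). At 6 h the 3 samples spread widely, at 0.751, 0.439 and 0.222 CPM, and overlapped those of TWEAK alone. The log2 difference at 6 h was -0.36 (95% interval -1.08 to 0.35; edgeR adjusted p = 0.587).

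Tnfrsf21 was at 109, 113 and 114 CPM with TWEAK and NIK SMI1 at 24 h, between the 92.2 to 93.4 CPM of TWEAK alone and the 128 to 135 CPM of vehicle. It was 1.21-fold higher than with TWEAK alone (log2 0.27, SE 0.0348, edgeR adjusted p = 1.09e-06). At 6 h it was at 123, 119 and 122 CPM, also between the other 2 groups without overlap, and the log2 difference from TWEAK alone was 0.10 (SE 0.0348, edgeR adjusted p = 0.071).

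Tnfrsf1b was at 12.9, 12.1 and 12.5 CPM with TWEAK and NIK SMI1 at 24 h, below every sample of TWEAK alone. It was 1.26-fold lower (log2 -0.34, SE 0.0701, edgeR adjusted p = 0.000853). With samples 2 and 3 of TWEAK at 24 h left out, which leaves 1 TWEAK sample, the log2 difference was -0.24. At 6 h Tnfrsf1b was at 13.4, 14.4 and 12.1 CPM, with a log2 difference of -0.19 (SE 0.0721, edgeR adjusted p = 0.0995). Tnfrsf11a was at 8.13, 7.27 and 6.32 CPM at 6 h with the inhibitor, all below TWEAK alone. It was 1.31-fold lower (log2 -0.39, SE 0.095, edgeR adjusted p = 0.00695), and the call was lost without sample 1 of TWEAK at 6 h, the highest of its group (edgeR adjusted p = 0.0524). At 24 h Tnfrsf11a was at 7.04, 6.23 and 6.08 CPM, with a log2 difference of -0.18 (95% interval -0.38 to 0.02; edgeR adjusted p = 0.214).

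The other receptors did not pass in either comparison with TWEAK alone. Fas was at 0.918, 0.799 and 0.665 CPM with the inhibitor at 6 h, overlapping the TWEAK samples, and its log2 difference was -0.08 with a 95% interval from -0.60 to 0.44 (edgeR adjusted p = 0.892). At 24 h Fas was at 0.9702, 0.841 and 1.20 CPM, below every sample of TWEAK alone, with a log2 difference of -0.55 (95% interval -1.002 to -0.11; edgeR adjusted p = 0.08). Tnfrsf10b was at 91.9, 97.6 and 91.0 CPM at 6 h and at 95.4, 93.3 and 94.9 CPM at 24 h. Its log2 differences were -0.11 at 6 h (edgeR adjusted p = 0.0544) and -0.04 at 24 h (edgeR adjusted p = 0.481). The 6 h difference of Tnfrsf10b passed without sample 2 of TWEAK with NIK SMI1 at 6 h (edgeR adjusted p = 0.0187).

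The abundant receptors Tnfrsf1a and Ltbr differed little. Tnfrsf1a was at 119.6, 121 and 116 CPM with the inhibitor at 6 h and at 111, 104 and 106 CPM at 24 h. Its log2 differences from TWEAK alone were 0.08 (95% interval 0.00 to 0.15; edgeR adjusted p = 0.2) and -0.02 (95% interval -0.09 to 0.06; edgeR adjusted p = 0.814). Ltbr was at 127, 133 and 124 CPM at 6 h and at 127, 122 and 116 CPM at 24 h. Its log2 differences were 0.12 (95% interval 0.03 to 0.20; edgeR adjusted p = 0.0785) and 0.05 (95% interval -0.03 to 0.14; edgeR adjusted p = 0.469), and the first passed without sample 1 of vehicle at 6 h (edgeR adjusted p = 0.0453) or sample 3 of TWEAK with NIK SMI1 at 6 h (edgeR adjusted p = 0.0434).

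**Figure D4:**
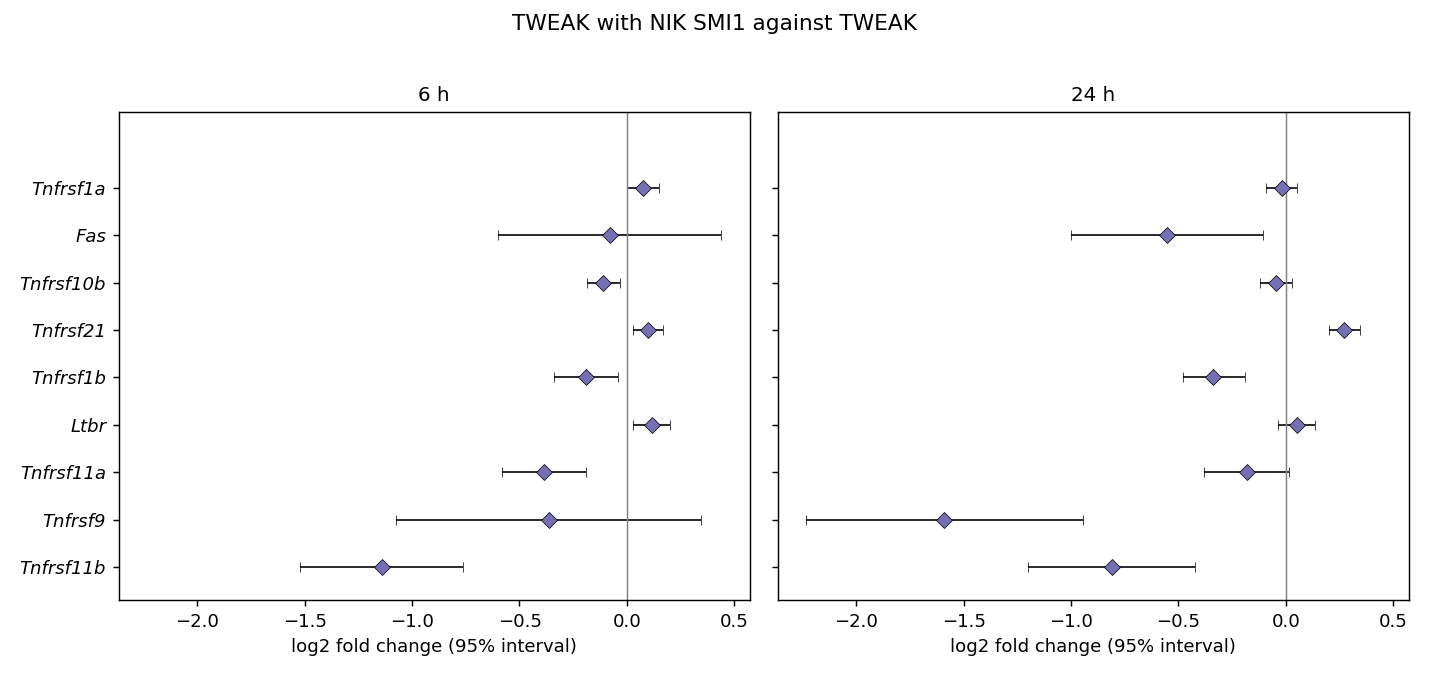
Log2 fold change of TWEAK with NIK SMI1 against TWEAK alone for 9 receptor genes at 6 h (left) and 24 h (right), with a 95% interval derived from the edgeR test. Values below 0 are lower with the inhibitor. Tnfrsf11b lies below 0 at both times, at -1.14 and -0.81, Tnfrsf9 is at -1.59 at 24 h, and Tnfrsf21 is above 0 at 24 h, at 0.27.

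Cells given TWEAK with NIK SMI1 were also compared with vehicle. At 24 h Tnfrsf21 was still 1.18-fold below vehicle (log2 -0.24, SE 0.0348, edgeR adjusted p = 8.28e-06), and it was the clearest receptor of this comparison. Tnfrsf1a was also lower (log2 -0.11, edgeR adjusted p = 0.0384), but not without sample 2 or 3 of vehicle at 24 h (edgeR adjusted p = 0.145 and 0.083) or sample 2 or 3 of the inhibitor group (edgeR adjusted p = 0.153 and 0.112). These were 2 of 9 receptors, both lower, against 17.9% of all genes (8.07% higher and 9.83% lower), and 0 receptors passed with the 1.5-fold limit added, against 3.98% of genes. For Tnfrsf9 the log2 difference from vehicle was 0.07 with a 95% interval from -0.75 to 0.88, which does not exclude a change of over 1.5-fold. For Tnfrsf11b it was 0.51 (95% interval 0.03 to 0.99; edgeR adjusted p = 0.146).

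At 6 h 4 receptors passed against vehicle with the inhibitor present, against 13.9% of all genes (7.24% higher and 6.7% lower): Tnfrsf1b (log2 0.22), Fas (log2 0.85) and Tnfrsf10b (log2 0.13) were higher and Tnfrsf21 (log2 -0.11) lower. Fas alone also exceeded 1.5-fold, as 1.08% of genes did in that direction. The 4 calls were near the threshold, with edgeR adjusted p values of 0.0431, 0.0419, 0.0166 and 0.0291. Without sample 2 of TWEAK with NIK SMI1 at 6 h none of the 4 passed (edgeR adjusted p = 0.241 for Tnfrsf1b, 0.0972 for Fas, 0.133 for Tnfrsf10b and 0.104 for Tnfrsf21). Without sample 1 of vehicle at 6 h Tnfrsf1b, Fas and Tnfrsf21 did not pass (edgeR adjusted p = 0.157, 0.0715 and 0.145), and without sample 2 of vehicle at 6 h Tnfrsf1b, Fas and Tnfrsf10b did not (edgeR adjusted p = 0.0808, 0.0516 and 0.0701). Fas was also lost without sample 3 of vehicle (edgeR adjusted p = 0.148), Tnfrsf1b and Fas without sample 1 of the inhibitor group (edgeR adjusted p = 0.111 and 0.194), Tnfrsf21 without sample 3 of the inhibitor group (edgeR adjusted p = 0.0516) and Tnfrsf1b without sample 1 of TWEAK at 6 h (edgeR adjusted p = 0.0506). Tnfrsf11b, at a log2 difference of 0.12 (95% interval -0.30 to 0.55), and Tnfrsf11a, at 0.12 (95% interval -0.08 to 0.32), did not pass.

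The size of the TWEAK response was compared between times as a difference of log2 fold changes. Tnfrsf21 was the only receptor to pass, of 9, against 8.91% of all genes (2.4% with a fold limit added, which Tnfrsf21 did not reach): its decrease was larger at 24 h than at 6 h, with a difference of -0.30 between the log2 fold changes (SE 0.0489, edgeR adjusted p = 0.000107). The effect of NIK SMI1 on Tnfrsf21 was also larger at 24 h, by 0.18 (SE 0.0492, edgeR adjusted p = 0.0379, against 4.73% of all genes and 0.567% with the fold limit, which Tnfrsf21 did not reach), but this was lost when any of 9 samples was left out, at edgeR adjusted p values from 0.0521 to 0.107. Those samples were samples 1 and 3 of TWEAK and samples 1 and 2 of TWEAK with NIK SMI1 at 6 h, all 3 samples of TWEAK at 24 h, and samples 2 and 3 of TWEAK with NIK SMI1 at 24 h. For Tnfrsf11a the TWEAK response at 24 h minus that at 6 h was -0.41 (SE 0.135), which missed the threshold (edgeR adjusted p = 0.0594) and passed it without sample 3 of TWEAK at 6 h (edgeR adjusted p = 0.0339) or without sample 1 or 3 of TWEAK with NIK SMI1 at 6 h (edgeR adjusted p = 0.0493 and 0.0421). Tnfrsf9, called at 24 h and not at 6 h, had a difference of 1.04 (95% interval 0.05 to 2.04; edgeR adjusted p = 0.209), so its 2 responses were not shown to differ.

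Vehicle at 24 h was also compared with vehicle at 6 h, where the share of receptors passing was near that of all genes. Between vehicle at 6 h and vehicle at 24 h Fas rose (log2 0.75, SE 0.281, edgeR adjusted p = 0.0442) and Tnfrsf11b (log2 -0.76, SE 0.226, edgeR adjusted p = 0.012) and Tnfrsf1a (log2 -0.10, SE 0.0355, edgeR adjusted p = 0.0281) fell, 3 of 9 against 29.9% of all genes (15.5% higher and 14.4% lower). Over all genes this comparison depended on scaling: 2407 genes rose and 2233 fell with TMM factors, but 3710 rose and 1260 fell when samples were scaled by total counts alone, where Tnfrsf1a no longer passed (log2 -0.04, edgeR adjusted p = 0.465) and Tnfrsf1b passed as higher (log2 0.22, edgeR adjusted p = 0.0258). The call for Tnfrsf11b was lost without sample 2 of vehicle at 6 h or sample 1 of vehicle at 24 h (edgeR adjusted p = 0.0867 and 0.136). That for Tnfrsf1a was lost without the same samples or sample 3 of vehicle at 24 h (edgeR adjusted p = 0.148, 0.127 and 0.0678). The call for Fas was lost when any 1 of the 6 vehicle samples, or sample 2 of TWEAK at 6 h, was left out, at edgeR adjusted p values from 0.0502 to 0.169.

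Apart from Tnfsf9, transcripts of the ligands of these receptors were scarce, and 3 of 8 ligand genes could be tested. Tnfsf9, which encodes the ligand of 4-1BB, had 151 to 497 reads per sample, with log2 fold changes with TWEAK of -0.12 at 6 h and -0.18 at 24 h (edgeR adjusted p = 0.41 and 0.171). Ltb, which forms the heteromer that binds Ltbr, was at 0.175 ± 0.108 CPM in vehicle and 0.768 ± 0.312 CPM with TWEAK at 6 h (SD, n = 3) and rose 4.31-fold (edgeR adjusted p = 0.000341). At 24 h Ltb was lower with NIK SMI1 than with TWEAK alone (log2 -1.28, edgeR adjusted p = 0.0175). Tnf, which binds the products of Tnfrsf1a and Tnfrsf1b, had at most 24 reads in a sample and rose 2.78-fold at 6 h (edgeR adjusted p = 0.0185), with a log2 fold change of 1.32 at 24 h (edgeR adjusted p = 0.0989). Fasl, Tnfsf10, Tnfsf11 and Tnfsf14, the genes of Fas ligand, TRAIL, RANKL and LIGHT, had at most 2 reads in any sample and Lta at most 5, so their transcripts were not measurable at this depth.

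Of 18 other genes of the receptor family 10 could be tested, and 4 rose and 2 fell with TWEAK at 6 h (11.7% and 12% of all genes did) and 4 rose and 3 fell at 24 h (18.3% and 20.7%). Ngfr, the low-affinity neurotrophin receptor, rose from 4.40 ± 0.184 to 18.7 ± 1.54 CPM at 6 h and from 5.13 ± 0.672 to 78.7 ± 1.15 CPM at 24 h (SD, n = 3), a 15.6-fold change (edgeR adjusted p = 6.73e-24). With NIK SMI1 present Ngfr was 25.1 ± 1.26 CPM at 24 h. Cd40 rose 3.75-fold and Relt 3.24-fold at 24 h, and with the inhibitor both were lower than with TWEAK alone (log2 -1.02 and -1.24, edgeR adjusted p = 1.82e-05 and 9.94e-10). The TWEAK receptor gene Tnfrsf12a lay between 412 and 519 CPM on average in the 6 groups, with log2 fold changes with TWEAK of -0.03 at 6 h and 0.01 at 24 h (edgeR adjusted p = 0.652 and 0.904), and was 1.1-fold higher with NIK SMI1 than with TWEAK alone at 6 h (edgeR adjusted p = 0.0269).

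All 21 genes of adaptors and regulators that act next to the receptors were tested. With TWEAK 11 rose and 2 fell at 6 h, beside 11.7% and 12% of all genes, and 11 rose and 3 fell at 24 h, beside 18.3% and 20.7%. Traf1, whose product joins Tnfrsf1b and Tnfrsf9 complexes, went from 1.15 ± 0.238 CPM in vehicle to 57.5 ± 2.47 CPM with TWEAK at 24 h and to 10.7 ± 0.559 CPM with TWEAK and NIK SMI1 (SD, n = 3). Birc3, which encodes the ubiquitin ligase cIAP2, rose 7.11-fold at 24 h and was lower with the inhibitor (log2 -1.22, edgeR adjusted p = 2.03e-13). Map3k14, which encodes NIK, rose 1.93-fold with TWEAK at 24 h and was 1.25-fold higher again with NIK SMI1 than with TWEAK alone (edgeR adjusted p = 3.38e-05). With NIK SMI1 against TWEAK alone 6 of the 21 were lower and 1 higher at 6 h (5.7% and 5.34% of all genes), and 9 lower and 2 higher at 24 h (8.29% and 10.2%).

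For the 3 receptors changed more than 1.5-fold by TWEAK, the genes with the nearest pattern over the 6 group means were sought among 13166 tested genes averaging at least 1 CPM, by the root mean square difference of log2 levels after centring each gene. Nearest to Tnfrsf9 were Adam19 (0.123), Csf1 (0.178) and Adamts4 (0.183). Nearest to Tnfrsf11b were Sytl2 (0.145), Rgs16 (0.154) and Spire1 (0.177). Nearest to Fas were 5430405H02Rik (0.0528), Rhpn1 (0.0918) and Syne4 (0.0983). These distances describe 6 points per gene that come from the same 18 samples.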

How the data were processed

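RNA from 18 samples of mouse RPTEC was sequenced by the authors from Illumina TruSeq RNA libraries. Their methods describe alignment with GSNAP in HTSeqGenie to mouse NCBI build 37 and counting of uniquely aligned reads in exons of each Entrez gene. The deposited tables give for each sample the raw count per gene and the RPKM that the authors computed from it. The submitters' processing notes name DESeq2. Counts were used for CPM (per total count of a sample) and tests, and the deposited RPKM only for levels between genes. Entrez IDs were given symbols from a RefSeq table for GRCm38.p6, which matched 31049 of 36528 IDs.

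Genes with more than 10 reads in at least 4 samples were tested with edgeR 4.0.16 (R 4.3.3) by the quasi-likelihood test, with TMM factors (0.964 to 1.03) and 1 fit of 6 groups of 3, and p-values were adjusted by Benjamini-Hochberg over 15521 genes. The test itself gives no SE, so each SE was derived from the log2 fold change and its F value. The 95% intervals use that SE and a t quantile. Intervals and read floors do not cover technical variation before counting. Counts of replicates differed beyond sampling noise in every pair (chi-square per gene 2.19 to 9.95), so all were kept as separate samples.

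The receptors and gene lists were chosen with earlier results of these data known. Values of every tested receptor are given for TWEAK against vehicle and for TWEAK with NIK SMI1 against TWEAK. In the other comparisons values are given for the receptors that passed and for some that did not. From the lists, values are given for genes that passed and changed over 1.5-fold, at most 6 per list. Tnfrsf12a, Tnfsf9, the scarce ligands and the marker genes are given outside this rule. The study's fold limits (2-fold for TWEAK, 1.5-fold otherwise) were a second call rule. Alternatives were DESeq2 1.42.0 (Wald test and size factors), total-count scaling, other filters, each time fitted alone and leaving out each sample.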

Additional observations from a re-analysis of the deposited data

Results flagged for a closer look

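These results are listed because the effect of TWEAK or of NIK SMI1 differed between 24 h and 6 h by a test of the difference itself (edgeR's quasi-likelihood test, adjusted over all genes tested); no explanation was tested. Among the receptors, the decrease of Tnfrsf21 with TWEAK was larger at 24 h (log2 -0.51 against -0.21 at 6 h, difference -0.30, edgeR adjusted p = 0.000107). The increase of Tnfrsf21 with NIK SMI1 over TWEAK alone was larger at 24 h (difference 0.18, edgeR adjusted p = 0.0379). That call was lost without sample 1, 2 or 3 of TWEAK at 24 h (edgeR adjusted p = 0.0586, 0.0929 and 0.0658), among other samples. Among list genes, the increase with TWEAK was larger at 24 h for Ngfr (1.88, edgeR adjusted p = 1.56e-11) and Traf1 (1.31, edgeR adjusted p = 0.000122). The decrease with NIK SMI1 against TWEAK alone was larger at 24 h for Ngfr (log2 -1.65 against -1.08, difference -0.57, edgeR adjusted p = 0.000867), Traf1 (log2 -2.43 against -1.92, difference -0.52, edgeR adjusted p = 0.0118) and Birc3 (log2 -1.22 against -0.82, difference -0.40, edgeR adjusted p = 0.0151). The TWEAK response itself was also larger at 24 h for Tnfrsf21, Ngfr and Traf1, and the inhibitor differences were not scaled to it. Traf2 was at log2 -0.27 at 24 h and at -0.06 at 6 h, where it did not pass (difference -0.21, edgeR adjusted p = 0.0436). Summed islet transcripts were near 0 in the NIK SMI1 samples at 24 h and low in samples 2 and 3 of TWEAK at 24 h, and their part in these values was not tested.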

How the results depend on the processing

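Over 81 log2 fold changes of receptors and their alternatives, 1950 alternative values were computed. Of these 1863 stayed on their side of the threshold, 71 no longer passed, 16 newly passed, and 0 of the called values changed sign. With the fold limit added, the receptors passing numbered 1 and 2 for TWEAK against vehicle at 6 h and 24 h, 1 and 2 for TWEAK with NIK SMI1 against TWEAK, 1 and 0 for TWEAK with NIK SMI1 against vehicle, and 0 and 0 for the differences between times in the TWEAK and NIK SMI1 effects. For TWEAK with NIK SMI1 against vehicle at 6 h, 4 receptors became 1 with no filter on low counts, 2 with DESeq2 and 1 with each time fitted alone. Among all genes 2163 of 15521 became 2382 of 26210, 2169 of 15521 and 1657 of 14944. At 24 h, 2 receptors became 1 with total-count scaling and 1 with no filter, while 2777 of 15521 genes became 2839 of 15521 and 2831 of 26210. For vehicle at 24 h against 6 h, 3 receptors became 1 with no filter, while 4640 of 15521 genes became 4527 of 26210. Fas did not pass in this comparison with the DESeq2 Wald test (adjusted p = 0.0804). For TWEAK with NIK SMI1 against TWEAK at 6 h, Tnfrsf10b passed with DESeq2 (adjusted p = 0.0456) and Tnfrsf21 with total-count scaling (edgeR adjusted p = 0.04). The fit without samples 2 and 3 of TWEAK at 24 h, added after seeing the data, leaves 1 TWEAK sample at 24 h. Receptors passing are therefore not counted for that fit. The cause of the changes in calls was not tested, beyond the smaller number of samples or the stricter limit itself.

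Leaving out 1 sample at a time, receptors passing ranged from 5 to 6 for TWEAK against vehicle at 6 h and from 5 to 8 at 24 h. Of 15426 to 15519 genes tested, 3124 to 3820 and 5058 to 6260 passed. For TWEAK with NIK SMI1 against TWEAK the receptor range was 1 to 3 at 6 h and 4 to 4 at 24 h (all genes 1138 to 1894 and 2200 to 3114). For TWEAK with NIK SMI1 against vehicle it was 0 to 4 at 6 h and 1 to 2 at 24 h (all genes 1400 to 2326 and 2218 to 2956). For vehicle at 24 h against 6 h it was 0 to 3 (all genes 3855 to 4778). For the differences between times it was 1 to 2 for TWEAK and 0 to 1 for NIK SMI1 (all genes 1059 to 1550 and 388 to 1086). No paired analysis was possible because the labels give no replicate numbers that samples of different groups share. Depth limits Fas, Tnfrsf9, Tnfrsf11b and the ligands most, since their low counts widen the intervals, and Tnfrsf19 could not be tested.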
